A study of Mus musculus with 2 samples.

Results

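The genes described here are 7 members of the major histocompatibility complex (MHC) class II pathway: H2-Aa, H2-Ab1, H2-Eb1, H2-DMa, H2-DMb1, Cd74 and Ciita. They were chosen by name from the mouse annotation, out of 21938 protein-coding genes. The tissue was thymus of B6CASTF1/J females, an F1 cross of C57BL/6J with CAST, at 25 days of age, and the assay was DNase-seq, which maps DNase I hypersensitive sites. There were 2 libraries, 1 per animal, and both belonged to 1 group, so nothing was treated, deleted or contrasted. The libraries are called replicate 1 and replicate 2 after their labels.

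The enzyme cuts accessible chromatin, and stretches with dense cutting (peaks) mark promoters and other regulatory DNA. Short stretches inside them that are cut less than their surroundings (footprints) can mark bound protein. MHC class II molecules are pairs of an alpha and a beta chain that show peptides to CD4+ T cells. They are made mainly by dendritic cells, B cells, macrophages and thymic epithelial cells, whereas developing mouse T cells, the bulk of the thymus, do not make them. Their promoters share an X box, bound by the RFX complex with CREB at an adjoining X2 site, and a Y box, bound by NF-Y. CIITA, the product of Ciita, binds no DNA itself but is recruited to these bound boxes and switches the genes on. Its own gene is read from several promoters that different cell types use: promoter I in dendritic cells and macrophages, promoter III in B cells and promoter IV after interferon-gamma and in thymic epithelium.

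The territory of a gene was its body with 10 kb on each side. Replicate 1 had 127552 peaks, 363775 footprints and 44.8 Mb of bases with a false discovery rate (q-value) below 0.05, and replicate 2 had 67270 peaks, 203939 footprints and 23.2 Mb. Replicate 1 thus had 1.93 times as many such bases and 1.9 times as many peaks. The number of reads is not given in the sources used here, so the depth is unknown and no interval was computed. A peak within 1 kb of the 5′ end (promoter peak) was present in each library at all 8 T lineage markers examined. These were Cd3e, Cd4, Cd8a, Lck, Rag1, Tcf7, Bcl11b and Ptcra. Over all protein-coding genes the share was 61.7% in replicate 1 and 55.1% in replicate 2, so these peaks alone do not identify the tissue. In bulk tissue, fewer cells of a type and less accessibility per cell cannot be told apart.

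All 7 members had at least 1 peak, 1 footprint and 1 base with q below 0.05 in their territory in both libraries. Over all protein-coding genes, 82.5% had a territory peak in replicate 1 and 74% in replicate 2. Footprints were present in the territories of 80.1% of genes in replicate 1 and 72.5% in replicate 2, and bases with q below 0.05 in 83.7% and 75.5%. The median member had 7 peaks in replicate 1 and 4 in replicate 2, against 4 and 2 for the median of all genes. Median footprints per member territory were 22 in replicate 1 and 13 in replicate 2, against 14 and 8 over all genes. Median accessible bases were 2058 in replicate 1 and 891 in replicate 2, against 1805.5 and 928 over all genes. The median member therefore had more peaks and footprints than the median gene in both libraries, and more accessible bases in replicate 1 only.

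H2-DMa stood apart from the other members. Its territory held 20 peaks in replicate 1 and 14 in replicate 2, with 9324 and 7458 bases with q below 0.05, a mean of 8391 ± 1320 bases (SD, n = 2). The next by mean accessible bases were H2-Eb1 with 2014.5 ± 999 and H2-Ab1 with 1974.5 ± 613. H2-DMb1 had 1474.5 ± 825 bases, Ciita 1275.5 ± 897, Cd74 1225.5 ± 532 and H2-Aa 977.5 ± 667 (SD, n = 2 each). Among these lower 6 genes every neighbour in the order lay within the spread between the libraries. Counts of peaks were 4 and 2 for H2-Aa, 7 and 5 for H2-Ab1, and 8 and 6 for H2-Eb1, in replicates 1 and 2. They were 6 and 3 for H2-DMb1, 6 and 4 for Cd74, and 8 and 3 for Ciita. Per 10 kb of territory, Ciita had the lowest peak count of the members in both libraries, 1.17 in replicate 1 and 0.439 in replicate 2, beside medians over all genes of 0.862 and 0.422.

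**Figure D1:**
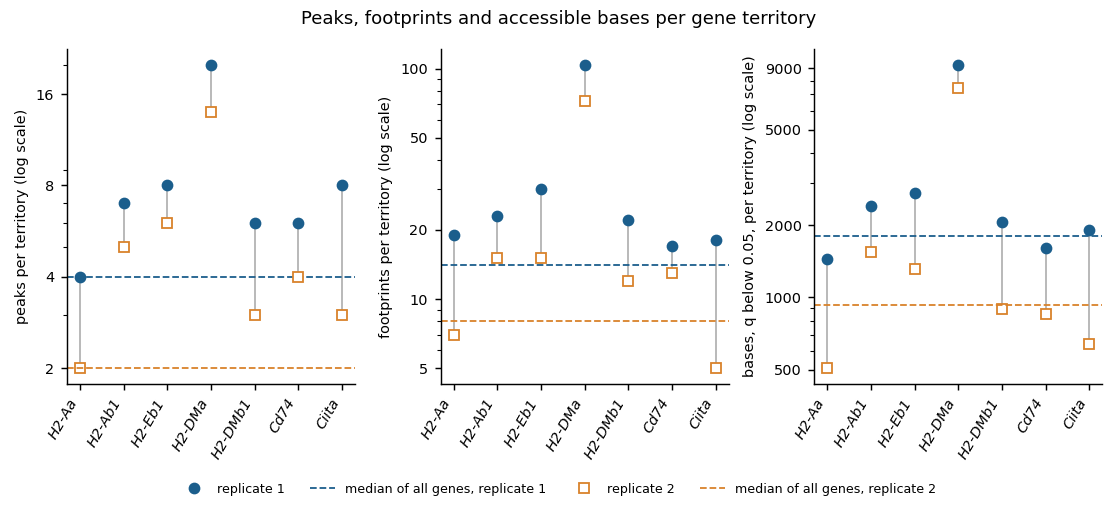
Peaks, footprints and bases with a q-value below 0.05 in the territory of each member (y axes, log scale), filled circles for replicate 1 and open squares for replicate 2, with dashed lines at the median of all protein-coding genes in each library. H2-DMa lies highest in all 3 panels, and H2-Aa and Ciita have the fewest footprints and bases in replicate 2, 7 and 5 footprints with 506 and 641 bases.

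The size of the drop between libraries differed among the members. Accessible bases in replicate 1 were 1.25 times those in replicate 2 at H2-DMa, 1.56 times at H2-Ab1, 1.89 times at Cd74 and 2.08 times at H2-Eb1. The ratio was 2.31 at H2-DMb1, 2.86 at H2-Aa and 2.98 at Ciita. Set beside the ratio of 1.93 over the whole genome, H2-DMa and H2-Ab1 lay below it and Ciita, H2-Aa and H2-DMb1 above it.

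A peak lay within 1 kb of the gene's 5′ end in 6 of 7 members in replicate 1 and in 5 of 7 in replicate 2. The background over all protein-coding genes was 61.7% in replicate 1 and 55.1% in replicate 2. Ciita had none in either library, and H2-DMb1 had one in replicate 1 only. With any annotated transcript start in place of the 5′ end, the counts were 7 and 5, beside 66.5% and 59.7% of genes.

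**Figure D2:**
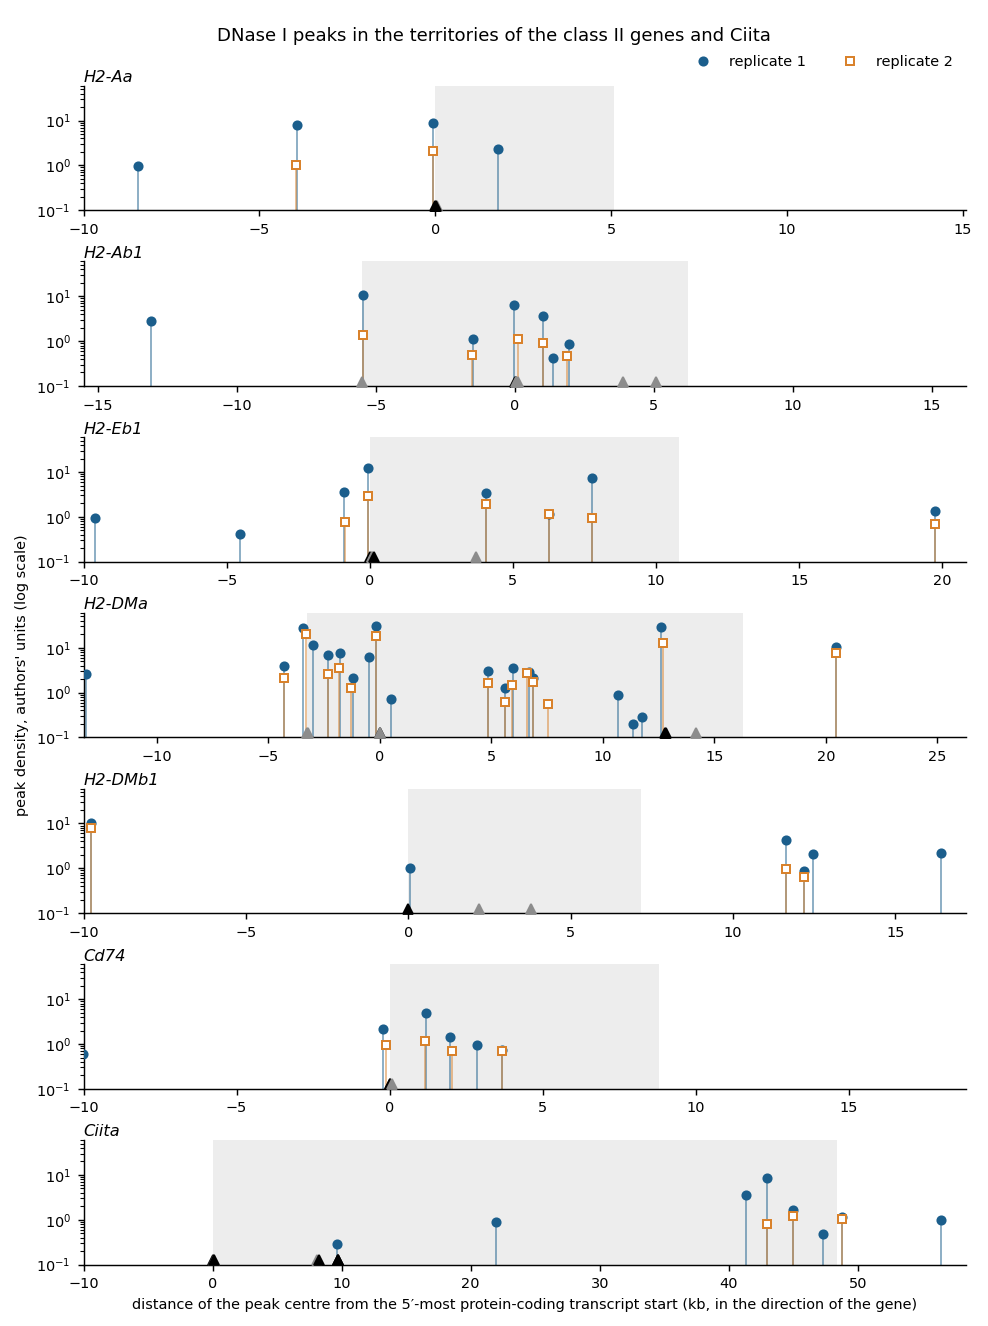
Density of each peak (y axis, authors' units, log scale) against the distance of its centre from the 5′-most protein-coding transcript start of the member (x axis, kb, in the direction of the gene), filled circles for replicate 1 and open squares for replicate 2. Grey shading is the gene body, black triangles are protein-coding transcript starts and grey triangles other transcript starts; the classical chain genes and Cd74 have shared peaks at the start, whereas the shared peaks of Ciita lie at least 42959 bp downstream of its first start.

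The classical chains are H2-Aa, the alpha chain of the I-A molecule, H2-Ab1, its beta chain, and H2-Eb1, the beta chain of I-E. All 3 genes lie on chromosome 17 of mm10, and the start of each had a peak in both libraries, also in the shorter of the 2 deposited peak lists. The density of a peak was computed by the authors on a scale that is not stated, so each value is placed by its percentile among the peaks of its own library.

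H2-Aa runs on the minus strand at chr17:34282744-34287823. Its promoter peak, at chr17:34287781-34287980 in replicate 1 and chr17:34287781-34288000 in replicate 2, covered the annotated coding start at 34287823. The density was 9.08 in replicate 1, the 92.5th percentile, and 2.15 in replicate 2, the 72.4th percentile. This was the densest peak of the territory in both libraries. A second peak shared by both libraries lay in intergenic DNA 3937 bp upstream of the start, with densities of 8.04 in replicate 1 and 1.03 in replicate 2. Peaks at 8457 bp upstream, with a density of 0.968, and in a noncoding exon inside the gene, with a density of 2.36, were present in replicate 1 only. The promoter of H2-Aa is shown because it carries the X and Y boxes described further on; the sequence is that of RefSeq on GRCm38.p6, chr17:34287774-34288073, minus strand, 250 bases before to 50 bases after the RefSeq start, with the X core and the Y box in capitals.
H2-Aa promoter: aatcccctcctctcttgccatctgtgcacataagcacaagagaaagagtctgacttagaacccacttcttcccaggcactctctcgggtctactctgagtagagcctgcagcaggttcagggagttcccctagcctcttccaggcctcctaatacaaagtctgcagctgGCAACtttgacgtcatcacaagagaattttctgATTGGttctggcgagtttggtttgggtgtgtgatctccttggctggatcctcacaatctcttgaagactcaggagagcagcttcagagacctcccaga

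H2-Eb1 runs on the plus strand at chr17:34305867-34316674. Its promoter peak was the densest of any classical chain peak in both libraries, with a density of 12.5 in replicate 1, the 94.8th percentile, and 2.96 in replicate 2, percentile 78.2. It lay at chr17:34305701-34305900 in replicate 1 and chr17:34305681-34305900 in replicate 2. Of the 6 peaks shared by both libraries in this territory, 1 was the promoter, 1 lay 907 bp upstream and 3 lay in introns of the gene. The upstream peak had densities of 3.68 in replicate 1 and 0.762 in replicate 2. The intronic peak 7753 bp inside the gene had 7.48 in replicate 1 and 0.924 in replicate 2. That intronic site was thus near the promoter in rank in replicate 1 (the 90.9th percentile) but not in replicate 2 (the 49.7th). The other intronic peaks had densities of 3.38 and 1.14 in replicate 1 and 1.89 and 1.15 in replicate 2. The remaining shared peak lay 19743 bp from the start, at the promoter of H2-Eb2, a second I-E beta-like gene, with 1.33 in replicate 1 and 0.678 in replicate 2. The RefSeq promoter of H2-Eb1, GRCm38.p6, chr17:34305617-34305916, plus strand, has its X core and Y box within the promoter peak, and they are again in capitals.
H2-Eb1 promoter: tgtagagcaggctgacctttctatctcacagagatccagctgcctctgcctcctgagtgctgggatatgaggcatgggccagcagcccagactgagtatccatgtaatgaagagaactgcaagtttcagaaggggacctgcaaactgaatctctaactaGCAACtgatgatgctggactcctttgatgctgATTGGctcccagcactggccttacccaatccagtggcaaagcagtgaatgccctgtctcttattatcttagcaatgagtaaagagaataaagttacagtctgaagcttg

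H2-Ab1 runs on the plus strand at chr17:34257689-34269419. Its annotated 5′ end, at 34257689, is that of a noncoding transcript, and its coding transcripts start between 34263209 and 34263250. Both places were open. The peak at the noncoding start, chr17:34257661-34257860 in both libraries, was the densest of the territory, with 10.9 in replicate 1 and 1.39 in replicate 2. The peak at the coding start had 6.31 in replicate 1 and 1.1 in replicate 2, and it lay at chr17:34263101-34263280 in replicate 1 and 34263201-34263460 in replicate 2. In replicate 1 it covered the start and the DNA before it, and in replicate 2 it began 8 bp before the start and reached into the coding exon. Of the other shared peaks, 1 lay 1509 bp upstream of the coding start, with 1.14 in replicate 1 and 0.486 in replicate 2. The last 2 lay 1011 and 1931 bp downstream of the first coding start, with 3.57 and 0.846 in replicate 1 and 0.888 and 0.468 in replicate 2.

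H2-DMa and H2-DMb1 encode the chains of H2-M (DM in humans), which exchanges the invariant chain remnant for antigenic peptide in class II molecules. H2-DMa runs on the plus strand at chr17:34119541-34139101. Its annotated span is longer than its main coding unit and runs into Brd2, a ubiquitously expressed chromatin reader on the opposite strand, so peaks near the 5′ end cannot be given to one gene. The 3 densest sites of the territory were all shared. The first, chr17:34119321-34119480 in replicate 1 and chr17:34119381-34119640 in replicate 2, lay at the annotated 5′ end within a Brd2 untranslated region, with 27.1 and 20.6. The second, at chr17:34122561-34122740 in replicate 1, had 30.8 in replicate 1 and 18.6 in replicate 2. It lay 92 bp before the first coding start of H2-DMa at 34122832 and just beyond the 5′ end of Brd2. This site too cannot be given to one gene. The third, at chr17:34135341-34135500 in replicate 1 and chr17:34135401-34135640 in replicate 2, lay at the H2-DMa coding start at 34135628, with 29.4 and 13. In both libraries all 3 ranked above the 95th percentile, whereas no classical chain peak did.

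The third of these sites differed in sequence from the classical promoters. It held a match to the CTCF consensus (CCANNAGG followed directly by NGGC) at chr17:34135419-34135430 on the plus strand, covered by a footprint in both libraries.
H2-DMa CTCF match: CCACCAGGGGGC
CTCF is a zinc finger protein that marks insulators and loop anchors. That consensus was found in the 300 bases round the centre of 5.16% of peaks in replicate 1 and 4.12% in replicate 2, and in 0.916% of 300-base RefSeq promoter windows. Among the members' distinct peaks, 4 of 57 in replicate 1 and 2 of 36 in replicate 2 held one. The others were at H2-Aa inside the gene in replicate 1 only, at Cd74 in an intron in both libraries and at Ciita in replicate 1 only. The match within H2-Aa lies at chr17:34286041-34286052 on the minus strand, and its letters differ from those at H2-DMa within the free positions of the consensus.
H2-Aa CTCF match: CCAGCAGGGGGC

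The remaining peaks of the H2-DMa territory lay mostly over Brd2 and in introns of H2-DMa, with a replicate 1 peak in a noncoding exon of CR974462.2 upstream and a shared peak at H2-DMb2. Of the 20 peaks in replicate 1, 13 had a partner in replicate 2, and of the 14 in replicate 2, 13 had a partner. The peak 7656 bp downstream of the last coding start belongs to the promoter of H2-DMb2, a near copy of H2-DMb1, with 10.3 in replicate 1 and 7.83 in replicate 2.

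H2-DMb1, on the plus strand at chr17:34153072-34160230, had a weaker promoter peak. This peak, at chr17:34153044-34153220, was called in replicate 1 only, with a density of 1.03, the 56.6th percentile. Within 500 bp of its start there were 199 bases with q below 0.05 and 3 footprints in replicate 1, with a lowest q of 7.45e-05, and no such base and no footprint in replicate 2. The nearest replicate 2 peak lay 9692 bp away, at H2-DMb2. Because H2-DMb1 and H2-DMb2 are close relatives, the peaks were checked for repeated sequence. All 147 words of 31 bases in the H2-DMb1 promoter peak occurred once on the mm10 chromosomes, and so did all 150 in the H2-DMb2 peak. Of the members' distinct peaks, 52 of 57 in replicate 1 and 32 of 36 in replicate 2 consisted wholly of single-copy words. The shared peaks of the H2-DMb1 territory were the H2-DMb2 promoter and 2 intergenic sites downstream of the gene. The intergenic sites had 4.23 and 0.889 in replicate 1, at 11638 and 12188 bp from the start, against 0.978 and 0.648 in replicate 2.

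Cd74 encodes the invariant chain, which fills the peptide groove of new class II molecules and guides them to endosomes. It lies on the plus strand at chr18:60803848-60812652. Its promoter peak had 2.19 in replicate 1, the 74th percentile, and 0.954 in replicate 2, the 50.9th percentile. The densest peak of the territory in both libraries was not the promoter but a site in an intron 1182 bp inside the gene, with 4.97 in replicate 1 and 1.17 in replicate 2. The other shared peaks, both intronic, had 1.45 and 0.735 in replicate 1 and 0.702 and 0.708 in replicate 2. The highest percentile of any Cd74 peak was thus 86.6, at that intronic site in replicate 1.

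Ciita, on the plus strand at chr16:10480059-10528418, had no annotated start with a peak in both libraries, and H2-DMb1 had none either. Its 8 distinct transcript starts fall into 3 groups along the gene, which correspond in order to promoters I, III and IV. The first group is at 10480059, 10480151 and 10480164, the second at 10488178 and 10488279 and the third at 10489746, 10489781 and 10489783. Within 500 bp of the 5 starts of the first and second groups, neither library had a peak, a footprint or a base with q below 0.05. Over all transcript starts of protein-coding genes, 52.9% had a peak within 500 bp in replicate 1 and 47.1% in replicate 2. A base with q below 0.05 lay that near to 54.3% of starts in replicate 1 and 48.6% in replicate 2.

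The third group, at promoter IV, was open in replicate 1 only and weakly. The peak lay at chr16:10489621-10489720, 26 bp before the start at 10489746, with a density of 0.286, the 13.7th percentile of that library. It was absent from the shorter peak list. There were 156 bases with q below 0.05, at chr16:10489577-10489732, with a lowest q of 0.00526, and 1 footprint within 500 bp. Replicate 2 had none of these within 500 bp of the same starts. The nearest peak of replicate 2 to any Ciita start lay 33168 bp away. The accessible run in replicate 1 held a gamma-activated site (GAS, TTCNNNGAA) at 10489619-10489627, an E-box (CACGTG, bound by USF1) at 10489630-10489635 and an interferon-regulatory factor match (IRF, GAAA and GAAA with 2 free bases between) at 10489710-10489719. These 3 kinds of element are those known for promoter IV. All 3 matches lay within bases with q below 0.05 in replicate 1, and no footprint touched them in either library. GAS matches were present in 8.3% of RefSeq promoter windows, E-boxes in 7.15% and IRF matches in 3.44%. The 300 bases round the centre of this peak also held an X box match (AGNNACNG), as did those of 55.9% of all peaks in replicate 1. Near the first and second groups, of the GAS, E-box, IRF, ETS and CTCF motifs only ETS matched (GGAAGT, in 23.8% of windows). No accessible base lay on those ETS matches.

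The densest Ciita sites lay at the other end of the gene. The site at chr16:10522921-10523120, in an intron of Ciita and of Dexi, an antisense neighbour, had 8.34 in replicate 1, the 91.8th percentile, and 0.798 in replicate 2, percentile 44.2. It was the densest of the territory in replicate 1 and not in replicate 2, where the shared peak at chr16:10524981-10525180 had 1.19. That peak had 1.61 in replicate 1. The third shared peak, at chr16:10528721-10528920 in a Dexi intron beyond the end of Ciita, had 1.17 in replicate 1 and 1.03 in replicate 2. Of the peaks in replicate 1 only, the densest, 3.6 at chr16:10521301-10521500, held a CTCF match. Only 3 of the 8 replicate 1 peaks of Ciita had a partner, against all 3 of replicate 2.

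**Figure D3:**
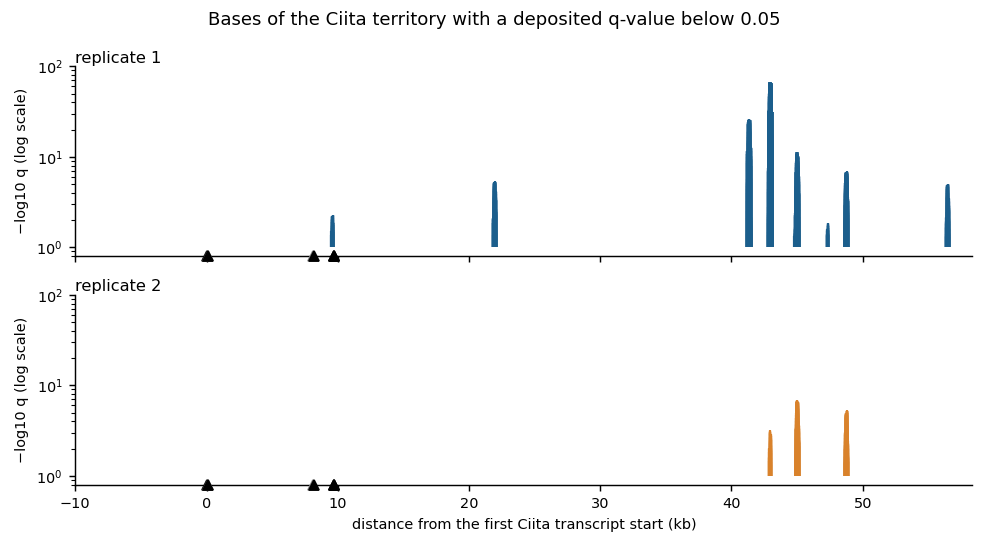
Bases of the Ciita territory with a deposited q-value below 0.05, drawn as −log10 of q (y axis, log scale) against the distance from the first Ciita transcript start (x axis, kb); the upper panel is replicate 1 and the lower replicate 2. Black triangles are protein-coding starts and grey triangles other starts; replicate 1 has a low run of 156 bases at the third group of starts, and replicate 2 has none at any start, its nearest peak lying 33168 bp away.

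The X and Y boxes were searched on both strands as AGNNACNG and ATTGG, and as an X-Y module when ATTGG followed AGNNACNG on the same strand after 10 to 40 bases. The module was found in the 300 bases round the centre of 6 of 57 member peaks in replicate 1 (10.5%) and 4 of 36 in replicate 2 (11.1%). Over all peaks the shares were 1.3% in replicate 1 and 1.31% in replicate 2, and 1.56% of RefSeq promoter windows held one. The members' matches lay at the coding starts of H2-Ab1, H2-Eb1, H2-DMa and H2-DMb1 and at 1505 bp upstream of H2-Ab1. Another lay 19544 bp from the nearest H2-Eb1 coding start, at the H2-Eb2 promoter. The H2-DMb1 match lay 43 bp downstream of its coding start, whereas those at the other coding starts lay upstream. The gap between X and Y was 23 to 26 bases in every member match, within the 10 to 40 allowed. The X boxes of the peptide-loading genes differed from each other at the free positions.
H2-DMa X box: AGCGACTG
H2-DMb1 X box: AGTAACTG
They lie at chr17:34135513-34135520 and chr17:34153096-34153103 on the plus strand. The H2-Aa promoter has no AGNNACNG match.

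A looser form, GNNAC followed by ATTGG after 24 to 32 bases, was chosen after these sequences had been read, so its counts describe the members and support nothing about them. It was in 13 of 57 member peaks in replicate 1 (22.8%) and 8 of 36 in replicate 2 (22.2%), beside 3.76% and 3.96% of all peaks and 5.27% of RefSeq windows. It added H2-Aa 63 bp upstream of the start and sites upstream of H2-Ab1, H2-Aa and H2-Eb1. It also matched in a Cd74 intron. There were 15 distinct matches in all. The stretches from X to Y near H2-Aa and H2-Eb1, with 10 bases on each side, are set out in the direction X to Y to show what they share, with GNNAC and ATTGG in capitals (GRCm38.p6).
H2-Aa, 63 bp upstream, chr17:34287857-34287914, minus strand: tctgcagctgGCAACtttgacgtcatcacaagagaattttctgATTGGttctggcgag
H2-Aa, 3938 bp upstream, chr17:34291733-34291789, plus strand: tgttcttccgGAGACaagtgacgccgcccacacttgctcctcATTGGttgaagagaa
H2-Aa, 8454 bp upstream, chr17:34296248-34296305, plus strand: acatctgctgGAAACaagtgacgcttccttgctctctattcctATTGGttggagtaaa
H2-Eb1, 4576 bp upstream, chr17:34301262-34301319, plus strand: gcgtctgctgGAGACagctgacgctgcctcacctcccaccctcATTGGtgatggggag
H2-Eb1, 918 bp upstream, chr17:34304920-34304977, minus strand: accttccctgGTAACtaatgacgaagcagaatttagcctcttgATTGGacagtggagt
H2-Eb1, 73 bp upstream, chr17:34305766-34305822, plus strand: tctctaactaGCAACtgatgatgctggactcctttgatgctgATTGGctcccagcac
H2-Eb1, 18 bp upstream, chr17:34305822-34305876, minus strand: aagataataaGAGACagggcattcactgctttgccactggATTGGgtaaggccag
H2-Eb2 promoter, 19544 bp from the nearest H2-Eb1 coding start, chr17:34325533-34325589, plus strand: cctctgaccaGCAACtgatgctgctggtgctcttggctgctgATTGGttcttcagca

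In 5 of these stretches the letters TGACG, the core of a CREB site, followed within the 10 bases after X. They are the H2-Aa sites 63, 3938 and 8454 bp upstream and the H2-Eb1 sites 4576 and 918 bp upstream. This feature too was looked for after the stretches had been read. Of the 15 member matches in replicate 1 peaks, 5 had it, against 35 of all 5103 matches of the looser module in that library (0.686%). In replicate 2 it was in 3 of 9 member matches, against 29 of 2907 (0.998%). The stretches at 3938 and 8454 bp upstream of H2-Aa and 4576 bp upstream of H2-Eb1 are distal. Their letters run in the order X, CREB core and Y, as they do 63 bp upstream of H2-Aa. The looser matches at the coding starts of H2-Ab1, H2-Eb1, H2-DMa and H2-DMb1 lack the CREB core in the 10 bases after X. The order is therefore not general to the member promoters, and whether the distal sites act like promoters was not tested. The site 3938 bp upstream of H2-Aa was the second densest of 4 peaks of that territory in replicate 1. In replicate 2 it was the weaker of 2, at the 53.4th percentile. The other 2 distal sites were called in replicate 1 only, with densities of 0.968 and 0.413.

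Footprints covered the X-Y stretch from end to end at 3 promoters in both libraries. At H2-Aa a single footprint spanned 34287861 to 34287910 in replicate 1 and 34287866 to 34287905 in replicate 2. At H2-Eb1 it spanned 34305768 to 34305819 in replicate 1 and 34305768 to 34305817 in replicate 2. At H2-DMa it spanned 34135500 to 34135560 in replicate 1 and 34135504 to 34135560 in replicate 2. The edges of these footprints thus agreed within 5 bases between the animals. At the H2-Ab1 coding start a footprint covered both boxes in replicate 1, from 34263135 to 34263194. In replicate 2 a footprint from 34263152 to 34263174 covered only part of X (34263149-34263156). It missed Y and lay outside the called peak of that library. At H2-DMb1 the footprints of replicate 1 touched X and not Y, and replicate 2 had none.

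Among the distal sites, the one at the noncoding H2-Ab1 start had a footprint over X and Y in replicate 1, from 34257726 to 34257780, and one over X and the first bases of Y in replicate 2, ending at 34257770. At 918 bp upstream of H2-Eb1 a footprint covered both boxes in replicate 1. In replicate 2 a footprint from 34304948 to 34304963 touched only the edge of X (34304963-34304967) and missed Y. At 3938 bp upstream of H2-Aa footprints reached X and not Y in both libraries. The distal sites 8454 bp upstream of H2-Aa and at the H2-Eb2 promoter had no footprint on X or Y in either library. In total, footprints touched X or Y by at least 1 base in 12 of 15 looser matches in replicate 1 peaks and 8 of 9 in replicate 2 peaks, beside 35.7% and 36.1% of all such matches. They touched both boxes in 6 of 15 and 4 of 9, beside 5.19% and 5.16%. For the stricter module the counts were 6 of 7 and 4 of 5 on X or Y, beside 33% and 31.3%, and 3 of 7 and 3 of 5 on both, beside 5.01% and 5.61%. Several of these matches share a gene or a peak and are not independent. The background was not matched for density. Member peaks had median densities of 2.25 in replicate 1 and 1.16 in replicate 2, against 0.825 and 0.93 over all peaks. The looser module was also chosen after the member sequences had been read, so its shares support nothing about the members.

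**Figure D4:**
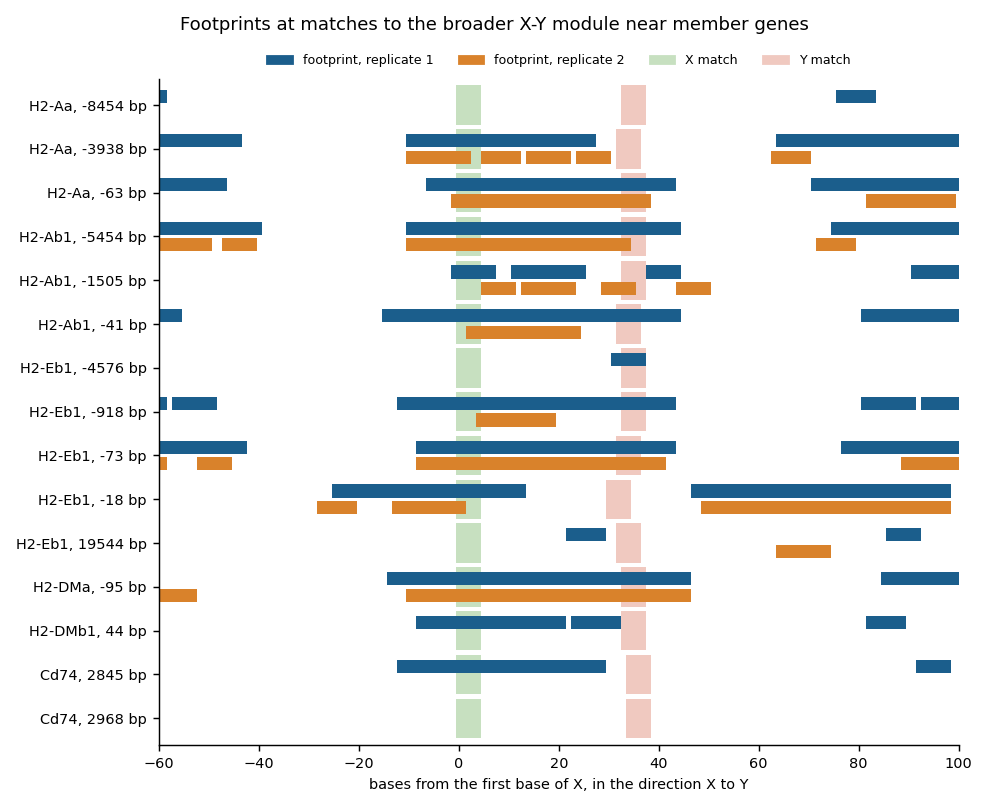
Footprints (bars, blue for replicate 1 and orange for replicate 2) at the 15 matches to the looser X-Y module in member territories, against the distance in bases from the first base of X in the direction X to Y (x axis); rows are named by gene and distance from the nearest coding start. Green and red shading mark the X and Y letters; footprints run through both at H2-Aa 63 bp upstream, H2-Eb1 73 bp upstream and H2-DMa 95 bp upstream in both libraries.

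Of the members' distinct peaks, 35 of 57 in replicate 1 (61.4%) and 35 of 36 in replicate 2 (97.2%) overlapped a peak of the other library, beside 46.9% and 88.8% of all peaks. The shorter list touched 49 of 57 and 27 of 36, beside 69.7% and 69.9% of all peaks. The only replicate 2 peak without a partner lay in an intron of H2-DMa, with a density of 0.552. Member peaks had median densities of 2.25 in replicate 1 and 1.16 in replicate 2, against 0.825 and 0.93 over all peaks.

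To place the members' shared peaks on a common scale, each of the 60960 overlapping pairs of peaks was ranked by density within each library. Over all pairs, 42.1% ranked higher in replicate 1. Of the 36 member pairs, 22 did, with a median difference of 2.84 percentile points. Of the 13 pairs of the classical chain genes, 11 ranked higher in replicate 1, with a median difference of 15 percentile points. A difference of at least 10 points in that direction was present in 12 of the 36 member pairs and in 9 of the 13, beside 19.9% of all pairs. The classical chains were grouped by role with these values already known. All 5 pairs of H2-Ab1 and both of H2-Aa were higher in replicate 1, and 4 of 6 at H2-Eb1. The H2-Aa promoter pair stood at the 84.4th percentile in replicate 1 and the 69.5th in replicate 2, and the H2-Ab1 noncoding start at percentiles 87.3 and 58.4. At H2-DMa, 6 of 14 pairs ranked higher in replicate 1, with a median difference of -1.8 points. Cd74 had 3 of 4 pairs higher in replicate 1, H2-DMb1 1 of 3 and Ciita 1 of 3. The Ciita pair that was higher had the largest difference of any member pair, 45 points, at the intronic site 33237 bp from the nearest coding start. The difference was not tested between animals, since each library is a single animal.

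**Figure D5:**
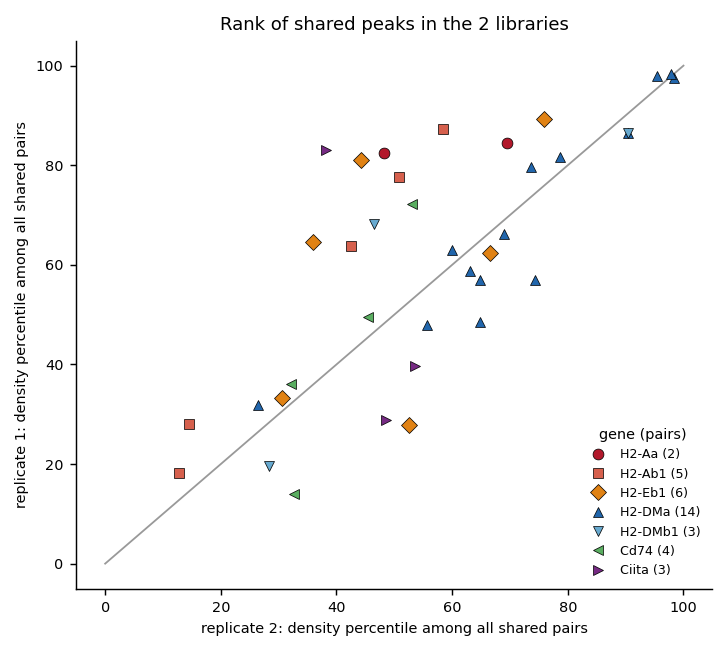
Density percentile of each shared member peak among all 60960 shared pairs in replicate 1 (y axis) and replicate 2 (x axis), with symbols by gene and the line of equal rank. The H2-Aa and H2-Ab1 points all lie above the line, most H2-DMa points lie near or below it, and 1 Ciita point lies 45 points above it.

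Markers of other cell types were examined beside the members, with all-gene promoter peak shares of 61.7% in replicate 1 and 55.1% in replicate 2. A peak anywhere in the territory was present at 82.5% of all genes in replicate 1 and 74% in replicate 2. Of 9 dendritic and myeloid markers, 5 in replicate 1 and 4 in replicate 2 had a promoter peak, with summed promoter densities of 18.8 and 10.1. Itgax and Batf3 had no peak and no base with q below 0.05 in their territory in replicate 2, and Csf1r had no peak there. Of 6 B cell markers, 3 and 2 had a promoter peak, with summed densities of 13.1 and 5.58, and Ms4a1 had no territory peak in replicate 2. Of 9 thymic epithelium markers, 5 and 4 had a promoter peak, with summed densities of 34.1 and 13.8. Krt5 had no territory peak in replicate 2. The marker with the densest promoter peak of each of these lists had one in both libraries. Irf8 had 10.7 in replicate 1 and 5.4 in replicate 2, Ebf1 11.8 and 4.56, and Ccl25 22.9 and 8.33. The 8 T lineage markers had summed promoter densities of 76.8 in replicate 1 and 76.7 in replicate 2. The density scale is not stated, so the sums given here do not compare the libraries. A promoter without a called peak adds nothing to a sum. Of the 23 shared promoter pairs of the T lineage markers, 5 ranked higher in replicate 1. The counts were 3 of 4 for dendritic and myeloid, 1 of 3 for B cell and 2 of 5 for thymic epithelium markers. The share over all pairs was 42.1%, and lists of 3 to 5 pairs are too short to be read against it. Some genes, such as Tcf7, gave several pairs, so the pairs are not independent. The summed promoter density of the 7 members was 62.8 in replicate 1 and 28.1 in replicate 2, of which the H2-DMa peak shared with Brd2 made up 27.1 and 20.6. Without H2-DMa the sums were 35.7 in replicate 1 and 7.45 in replicate 2. The sums of the genes for the box-binding proteins were 162 in replicate 1 and 102 in replicate 2. Those of the class II processing genes were 37.1 and 19.5. The part of the marked cell types in the members' densities was not tested. The reads were placed on the C57BL/6J reference assembly mm10 although the mice carry a CAST chromosome, and its part in the class II values was not tested.

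The other class II genes were examined as a list of 5. H2-Oa and H2-Ob encode the chains of H2-O, an inhibitor of H2-M. H2-Oa had a promoter peak of 3.98 in replicate 1 and 3.05 in replicate 2, and H2-Ob of 3.95 and 0.72. H2-DMb2 had 10.3 in replicate 1 and 7.83 in replicate 2, and H2-Eb2 had 1.33 and 0.678. H2-Ea-ps, the I-E alpha gene that C57BL/6J mice carry as an inactive form, had no promoter peak and 2 territory peaks in each library. Thus 4 of these 5 genes had a promoter peak in each library, and 6 of 7 members in replicate 1 and 5 in replicate 2. Over all protein-coding genes the share was 61.7% in replicate 1 and 55.1% in replicate 2. At H2-DMb2 the promoter was open in both libraries, whereas at its near copy H2-DMb1 it was called in 1.

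Of 7 genes for the RFX, NF-Y and CREB proteins that bind the X and Y boxes, 6 had a promoter peak in each library. Over all genes the share was 61.7% in replicate 1 and 55.1% in replicate 2. Their summed promoter densities were 162 in replicate 1 and 102 in replicate 2. Creb1 had the most territory peaks, 12 in replicate 1 and 8 in replicate 2, and Nfyb, an NF-Y subunit, the fewest, 3 and 2. Among the genes reported here for the interferon-gamma route to Ciita, Jak1, a kinase of the receptor, had the most peaks, 33 in replicate 1 and 20 in replicate 2, and Jak2, its partner kinase, the fewest, 9 and 5. Among 6 genes of class II processing and turnover, 5 had a promoter peak in replicate 1 and 4 in replicate 2. Ifi30, a lysosomal thiol reductase, had the most peaks, 28 and 9, and March8, a ubiquitin ligase that turns over class II molecules, the fewest, 3 and 1. Nfyc had no peak within 1 kb of its annotated 5′ end in either library, and only that end was used for this count. Its territory held 8 peaks in replicate 1 and 4 in replicate 2.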

How the data were processed

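Chromatin accessibility was measured by DNase-seq in thymus from 2 mice, 1 library per animal. Per the deposited notes, peaks, footprints and false discovery rates were made by the authors from each library's own filtered alignment on mm10, and nothing was pooled. No source used here names the aligner or the callers. The peak lists the authors deposited give a signal density per peak, made by the authors, with an unstated scaling. Another deposited file holds false discovery rates (q-values) for runs of bases, all of them below or at 0.05. The footprint lines carry 1 constant number, so positions alone were taken from them.

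From these files, peaks of the longer of 2 lists per library, footprints and bases with q below 0.05 were counted in each gene body with 10 kb on each side, from GENCODE M21. A promoter peak lay within 1 kb of the gene's 5′ end, and 500 bp was used for each transcript start. Libraries shared a peak when it overlapped by at least 1 bp. The same counts over all protein-coding genes, starts or peaks served as background; a member count was read against them without a test, because both libraries form 1 group. Motifs were matched as letters on both strands in 300 bases round each peak centre and in RefSeq promoter windows, which matched 4 of the 7 members. Words of 31 bases were counted on the chromosomes of GRCm38.p6. Counting functions were tested on simulated intervals. Python 3.11.15, numpy 2.4.6, pandas 2.3.3, pysam 0.24.0 and matplotlib 3.10.9 were used.

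The members, gene lists, motifs and windows were chosen with earlier results of these data known. All 7 members are named, and so is every other class II gene. Of each pathway list the gene with the most and the gene with the fewest territory peaks summed over both libraries are named. The T lineage markers, Nfyc and single markers of other cell types were named after their values were seen. Of the interferon-gamma list, 1 gene is not reported here. No read totals were found, so no interval on a density or count was computed. Alternatives were the shorter peak list, other windows, a stricter q-value, other overlap rules and each library alone.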

Additional observations from a re-analysis of the deposited data

How the results depend on the processing

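With either library left out, peaks per member territory ranged from 5.29 to 8.43 around 6.86, and members with a promoter peak from 5 to 6 around 5.5. Footprints ranged from 19.9 to 33.3 around 26.6 and accessible bases from 1885 to 3067 around 2476. Ciita starts with a peak ranged from 0 to 3 around 1.5, and with the shorter peak list they were 0. With 50 kb on each side the means were 26.5 peaks, 92.7 footprints and 10147 bases, and with the gene body alone 16.9 footprints and 1575 bases, because the window itself is larger or smaller. The share of member peaks found in both libraries cannot be computed from 1 library. Its mean moved between 74% and 82.6% around 79.3% under the 5 other settings. The 2 shares behind that mean, 61.4% and 97.2%, count the same overlaps over lists of unequal length. Their spread therefore does not measure variation between animals. The added looser X-Y module was in 10.5 member peaks per library, against 5. Restricted to pairs in both shorter lists, 7 of 9 classical chain pairs ranked higher in replicate 1; that restriction was chosen after seeing the data. No paired analysis was possible because both libraries belong to 1 group. Depth is unknown, so an absent peak in replicate 2 does not show closed chromatin.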
